A study of Mus musculus with 12 samples.

Results

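The main effect of interferon alpha (IFNa), a type I interferon, was taken from RNA-seq libraries of Hepa1-6, a mouse hepatoma cell line. Of 12 libraries, 6 were from samples given mIFNalpha and 6 were from samples not given it. Each set of 6 held 3 libraries with and 3 without antibody to PD-1, an inhibitory receptor of T cells (antiPD1), so that the 4 groups of 3 were untreated, IFNa, antiPD1 and the combination of both. All 12 libraries entered 1 additive model with a term for IFNa and a term for antiPD1, and the IFNa term is the average log2 fold change with IFNa after the antiPD1 term is taken out. It was fitted to 14389 of the 21878 genes in the count table, those with at least 10 counts in at least 3 libraries. The labels give liver as the tissue and mouse liver tumor in the series title, but no strain, age, host, dose, route or time, and nothing ties replicates to different animals or cultures. The p-values therefore measure only the spread between these libraries, which may be technical.

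Library totals ranged from 31.3 to 38.5 M counts (M, mega), and 15678 to 16377 genes had a count in each library. Levels are given as CPM (counts per M, scaled with the TMM method) in replicates 1 to 3. Hepatoma markers were abundant in every library, with a summed level of 13921 to 26744 CPM over the 13 listed genes in the count table. Markers of other cells were present too: 18 fibroblast and matrix genes, some of which hepatoma cells can also express, summed to 9250 to 13391 CPM, and 5 leukocyte genes summed to 401 to 1751 CPM. In such bulk RNA, more cells of a type and more RNA per cell cannot be told apart. In a principal component analysis, antiPD1 replicate 3 stood at 92.1 on the first component (the other antiPD1 libraries at 22.9 and 10.8), and IFNa replicate 1 at -71.0 on the second (the other IFNa libraries at 11.4 and 15.01). Counts below are therefore also given without these 2 libraries where they move. The 2 were chosen after the libraries were seen. In the sum over all 10 interferon lists described below, both MHC lists and the leukocyte markers, IFNa replicate 1 was the lowest IFNa library. In the same sums antiPD1 replicate 3 was the highest library not given IFNa. Leaving both out therefore raises the IFNa term in those sets, and counts without them are no separate support for an effect. The summed Ifit, Oas and RNA sensor lists differed, with IFNa replicate 1 the highest IFNa library. Without both libraries the median log2 fold change over all 10 interferon lists moved from 0.28 to 0.49. That of the Ifit genes moved from 1.13 to 1.09.

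Type I interferon binds the receptor chains IFNAR1 and IFNAR2, and the kinases JAK1 and TYK2 then activate the complex ISGF3, which holds STAT2 and IRF9 and binds interferon-stimulated response elements in the promoters of antiviral genes. Interferon gamma acts mainly through gamma-activated sites instead. Cell lines and infiltrating cells of a tumor can both respond.

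The promoters of 3 genes with some of the smallest p-values for the IFNa term are shown because the element that ISGF3 binds can be read in them. Each window runs from 250 bases before to 50 bases after the RefSeq start site (GRCm38.p6), 5′ to 3′ along the gene, with matches to the core of the interferon-stimulated response element (GAAA, any 2 bases, GAAA) in capitals, searched on both strands, so that a match on the other strand reads TTTC, any 2 bases, TTTC.
Ifit1, chr19:34640639-34640938, plus strand: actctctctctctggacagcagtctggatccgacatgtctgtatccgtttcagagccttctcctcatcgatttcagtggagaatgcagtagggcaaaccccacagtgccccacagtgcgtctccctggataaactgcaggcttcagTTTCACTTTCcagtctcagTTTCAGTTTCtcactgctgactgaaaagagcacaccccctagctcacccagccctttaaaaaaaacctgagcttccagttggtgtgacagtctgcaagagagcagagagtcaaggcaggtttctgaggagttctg
Ifit3, chr19:34583279-34583578, plus strand: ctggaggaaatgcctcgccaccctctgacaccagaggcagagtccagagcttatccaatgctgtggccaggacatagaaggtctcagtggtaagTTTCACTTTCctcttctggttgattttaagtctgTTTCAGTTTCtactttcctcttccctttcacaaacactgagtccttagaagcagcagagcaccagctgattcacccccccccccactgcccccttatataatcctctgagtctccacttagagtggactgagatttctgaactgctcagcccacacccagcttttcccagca
Isg15, chr4:156200769-156201068, minus strand: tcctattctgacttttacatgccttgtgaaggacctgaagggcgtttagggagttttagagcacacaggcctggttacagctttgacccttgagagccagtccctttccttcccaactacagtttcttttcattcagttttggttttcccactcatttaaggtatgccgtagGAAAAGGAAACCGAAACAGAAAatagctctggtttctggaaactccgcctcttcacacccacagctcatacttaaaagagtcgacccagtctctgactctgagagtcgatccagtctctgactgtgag

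The Ifit1 window held 2 separate matches, whose first bases were at -104 and -85 from the start site. The Ifit3 window held 2, at -156 and -122. In Isg15, 3 matches overlapped, with first bases at -78, -72 and -66. This motif was found in 1131 of 32851 promoter windows (3.44%), in 429 of the 10977 tested genes with a window (3.91%) and in 41 of 78 genes of the interferon lists described below (52.6%). It was in 5 of 6 Ifit genes, and its letters were in neither Ifit2 window. Among interferon-list genes with an unadjusted p below 0.05 and a higher level with IFNa, 21 of 35 windows held it (60.0%), and among the other interferon-list genes 20 of 43 did (46.5%). The gamma-activated motif (TTC, any 3 bases, GAA), searched on both strands, was in 4 of those 35 (11.4%) and 17 of those 43 (39.5%), against 8.30% of all windows. Tested genes that held the response element core were higher with IFNa at an unadjusted p below 0.05 in 31 of 429 cases (7.23%), against 177 of 10548 without it (1.68%). Outside the interferon lists the share was 10 of 388 holders (2.58%).

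No single gene passed an adjusted p of 0.05 for the IFNa term in edgeR's quasi-likelihood test (0 of 14389, 0%, with a smallest adjusted p of 0.999). At an unadjusted p below 0.05 there were 595 genes (4.14%), of which 262 were higher (1.82%) and 333 lower (2.31%) with IFNa. DESeq2 called 6 genes, all higher: Ifit1, Ifit2, Ifit3, Isg15, Sap25 and the predicted gene Gm9780, which had 17.7 CPM in IFNa replicate 1 and at most 4.90 CPM in the other libraries. Limma on the deposited FPKM called 0, with 470 genes at an unadjusted p below 0.05, of which 369 were higher (3.23% of genes) and the rest lower (0.884%). The 2 arms of the design share no library, so a gene could also be asked whether its 3 IFNa libraries lay wholly above the 3 untreated ones and its 3 combination libraries wholly above the 3 antiPD1 ones. That held for 40 genes (0.278%), and the reverse, wholly below in both arms, held for 29 (0.202%). Separation within 1 arm, in either direction, held for 10.2% of genes without and 14.2% with antiPD1. Of the 40, 12 belonged to the interferon lists, and of the 29, 0 did.

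The genes at the top of the IFNa term were antiviral effectors. In 10 lists of interferon genes, 103 genes were tested, and 94 had a fitted value above 0 (49.1% of all tested genes did). Their median log2 fold change was 0.28, against -0.0028 over all genes. At an unadjusted p below 0.05, 44 of the 103 were higher (42.7%, against 1.82% of all tested genes) and 1 was lower. They made up 7 of the 10 and 11 of the 20 smallest p-values. Without IFNa replicate 1 and antiPD1 replicate 3 the count was 79, in a fit where 8.26% of all genes were higher at that threshold. It was 11 when the antiPD1 term was left out of the model, where 0.806% of all genes were. Values were above 0 in both arms for 79 of the 103 genes (76.7%, against 21.2% of all tested genes). The lists and their members were chosen with earlier results of these data known. The shares set against all tested genes are therefore descriptions, not independent support.

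The Ifit genes encode proteins with tetratricopeptide repeats that bind foreign RNA and block its translation. The 6 genes lie within 99.3 kb on chromosome 19 (19:34550694-34650009, mm10, GENCODE M21). All 6 were higher with IFNa at an unadjusted p below 0.05 (1.82% of all tested genes were), with a median log2 fold change of 1.13. In 5 of them groups did not overlap in either arm (83.3%, against 0.278% of all tested genes). Ifit1 had 1.62, 2.13 and 3.45 CPM in untreated libraries and 8.08, 4.89 and 5.56 in IFNa libraries. It had 5.35, 4.96 and 5.29 CPM in antiPD1 libraries and 13.0, 9.13 and 10.3 in combination libraries. The combination libraries were the 3 highest of the 12, while IFNa and antiPD1 libraries overlapped each other. The log2 fold change of Ifit1 was 1.20 ± 0.20 (standard error, as throughout), the smallest p-value of all genes (unadjusted p = 6.98e-05). By DESeq2 it was 1.21 with an adjusted p of 8.85e-05, higher in 6 of 6 libraries given IFNa than in all libraries of the matching group without it.

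Ifit2 was at 4.90, 6.33 and 12.9 CPM in untreated and 19.4, 14.96 and 16.1 in IFNa libraries. In the other arm it was at 16.9, 12.5 and 21.7 CPM with antiPD1 and 37.0, 27.8 and 34.0 with the combination. Both arms were apart, and the log2 fold change was 1.01 ± 0.22. Ifit3 was at 2.11, 2.07 and 5.26 CPM in untreated and 17.6, 7.84 and 7.10 in IFNa libraries. With antiPD1 it was at 5.52, 6.57 and 9.77 CPM, and with the combination at 18.7, 13.2 and 13.1. IFNa replicate 1 thus reached the level of the combination libraries, and the log2 fold change was 1.41 ± 0.32. Ifit3b, a near copy of Ifit3, had 1.37 ± 0.35 and the related Ifit1bl1 1.05 ± 0.33, both below 6 CPM in every library. Reads shared between Ifit copies could be split between them in counting, so single members of this family are uncertain.

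Isg15, a ubiquitin-like protein attached to other proteins during the antiviral response, had 5.09, 8.06 and 7.49 CPM in untreated and 14.9, 9.64 and 11.2 in IFNa libraries. It had 9.01, 11.2 and 14.2 CPM with antiPD1 and 21.2, 16.6 and 17.5 with the combination. The groups did not overlap in either arm, and the log2 fold change was 0.74 ± 0.16. Among 28 antiviral effectors outside the Ifit and Oas families, 12 were higher at an unadjusted p below 0.05 (42.9%, against 1.82% of all tested genes). A further 1 was lower, and the median was 0.21. The transmembrane chaperone Rtp4 (0.70 ± 0.17), the nucleotide kinase Cmpk2 (0.62 ± 0.16) and the torsin Tor3a (0.46 ± 0.12) were, beside Isg15, the members with no overlap in either arm. Ifi44 had 0.79 ± 0.18 with overlap in the arm given antiPD1. The gene that was lower was Ifitm2, which encodes a membrane protein that hinders viral entry (-0.25 ± 0.11). Rsad2, which encodes the nucleotide-modifying enzyme viperin, had 1.33 ± 0.54 without antiPD1 and 0.04 ± 0.52 with it. The tether of budding viruses Bst2 had 0.20 ± 0.20. The genes of the lists named here were chosen after their values were seen, by smallest p, except those fixed by the naming rule.

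**Figure D1:**
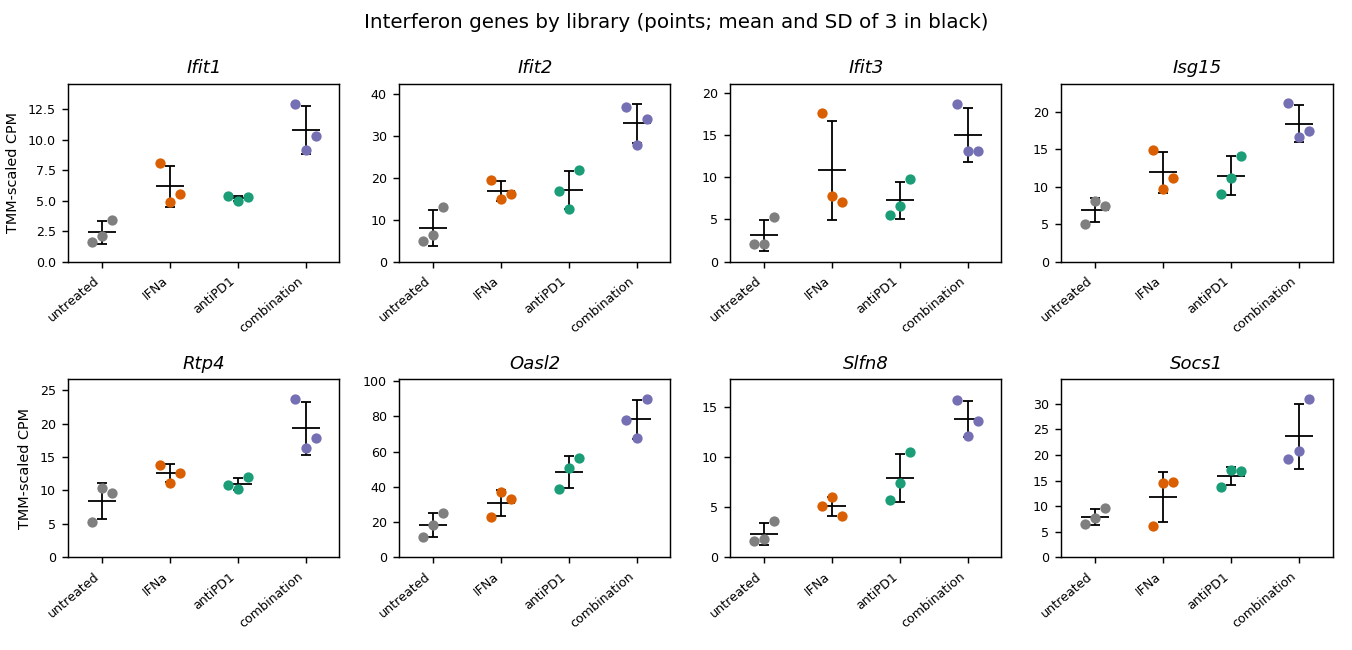
TMM-scaled CPM (linear axes from 0) of 8 interferon genes in each library by group; points are libraries, black bars the mean and SD of 3. By group mean, combination is highest for each gene and untreated lowest.

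Oas enzymes make the second messenger that switches on RNase L. All 7 members tested had values above 0, with a median of 0.41. Of these, 4 were higher at an unadjusted p below 0.05 (57.1%, against 1.82% of all tested genes). Oasl2 was at 11.4, 18.2 and 25.1 CPM in untreated, 22.8, 37.0 and 33.3 in IFNa, 38.7, 50.4 and 56.1 in antiPD1 and 77.7, 67.5 and 89.6 in combination libraries. Only IFNa replicate 1 of its IFNa libraries lay within the untreated range. Its log2 fold change was 0.73 ± 0.18, and the arms gave 0.76 ± 0.27 and 0.69 ± 0.27. Oas3 had 1.07 ± 0.38, Oas2 0.72 ± 0.26 and Oas1a 0.38 ± 0.15. These lists also cover the sensors that detect viral nucleic acid. Of 9 RNA sensors and partners, 5 were higher at an unadjusted p below 0.05 (55.6%, against 1.82% of all tested genes). They included the helicases Ddx58 (0.34 ± 0.10), which encodes RIG-I, Dhx58 (0.67 ± 0.21) and Ifih1 (0.47 ± 0.19), which encodes MDA5. Of 8 DNA sensors, 4 were higher at that threshold (50%), with a median of 0.51.

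Schlafen genes, interferon-inducible regulators of immune cell quiescence and of transfer RNA, gave the second highest median of the interferon lists, 0.81 over 7 members, after the Ifit genes. At an unadjusted p below 0.05, 5 were higher (71.4%, against 1.82% of all tested genes). Slfn8 was at 1.62, 1.83 and 3.61 CPM in untreated, 5.16, 5.98 and 4.14 in IFNa, 5.75, 7.45 and 10.5 in antiPD1 and 15.7, 12.1 and 13.7 in combination libraries. Neither arm overlapped, and its log2 fold change was 0.95 ± 0.22. Slfn1 (0.81 ± 0.19) and Slfn5 (0.95 ± 0.27) were apart in both arms as well. These genes are related and lie in a cluster, and reads shared between members could make single members uncertain. Interferon-induced PARP enzymes, which add ADP-ribose to proteins, had 6 of 6 values above 0 in both arms (21.2% of all tested genes did). Of these, 3 were higher at an unadjusted p below 0.05 (50%, against 1.82% of all tested genes). Parp12 (0.34 ± 0.11) and Parp14 (0.41 ± 0.14) were among the 3.

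Over 14 genes of the receptor and the signalling chain the median was 0.09. It was 0.022 to 0.22 without single libraries and 0.26 without IFNa replicate 1 and antiPD1 replicate 3. Of the 14, 3 were higher at an unadjusted p below 0.05 (21.4%, against 1.82% of all tested genes). They were the feedback inhibitor Socs1, Irf7, the factor that amplifies interferon production, and Stat2. Irf7 was at 14.5, 30.6 and 28.3 CPM in untreated and 85.4, 38.4 and 40.8 in IFNa libraries, with IFNa replicate 1 the highest of all 12. Its log2 fold change was 0.73 ± 0.28. Socs1 had 0.57 ± 0.21 and the same value in each arm, although IFNa replicate 1 (6.16 CPM) was below the untreated libraries (6.55 to 9.66). Stat2 had 0.25 ± 0.11, Irf9 0.16 ± 0.10 and Irf1 0.22 ± 0.20. The receptor chains Ifnar1 (-0.03 ± 0.06) and Ifnar2 (0.03 ± 0.14) and the deconjugase Usp18 (0.06 ± 0.10), a negative regulator of the receptor, had values near 0.

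The lists of 2 families known as targets of interferon gamma depended on IFNa replicate 1 and antiPD1 replicate 3. Of genes with a window, 5 of 5 guanylate-binding proteins and 5 of 6 immunity-related GTPases held the response element core. The gamma-activated motif was in 2 of 5 and 4 of 6. The guanylate-binding proteins, which coat intracellular pathogens, had 10 of 10 values above 0 and a median of 0.29, but 1 at an unadjusted p below 0.05, Gbp9 (0.48 ± 0.17). Without the 2 libraries it was 10 of 10, with a median of 0.66, against 8.26% of all genes in that fit. Gbp2 had 0.11 ± 0.33. Of 8 immunity-related GTPases, Irgm2 (0.42 ± 0.19) alone was higher at an unadjusted p below 0.05, and 7 were without the 2 libraries, against the same 8.26%.

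Antigen presentation had 0 of 20 MHC class I and peptide-loading genes at an unadjusted p below 0.05, with a median of 0.07 (0.12 without and -0.04 with antiPD1). The class I heavy chain H2-K1 was at 80.2, 93.1 and 171 CPM in untreated, 198, 194 and 219 in IFNa, 359, 373 and 1469 in antiPD1 and 559, 419 and 517 in combination libraries. IFNa libraries were wholly above untreated ones, while antiPD1 replicate 3 lay above all combination libraries. In the arm without antiPD1, 10.2% of all tested genes were apart in either direction. The log2 fold change was 0.13 ± 0.40 and the peptide transporter Tap1 had 0.10 ± 0.20. Without the 2 libraries, 16 of the 20 class I genes were higher at an unadjusted p below 0.05 (8.26% of all genes in that fit), with a median of 0.35. MHC class II genes had a median of 0.02 over 11 genes, and 0.67 without the 2 libraries.

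Among 12 chemokines, Cxcl10, a ligand of the T cell receptor CXCR3, was the member at an unadjusted p below 0.05. It was at 15.7, 16.9 and 30.6 CPM in untreated, 14.2, 40.1 and 45.7 in IFNa, 43.6, 52.2 and 70.5 in antiPD1 and 65.8, 85.9 and 115 in combination libraries. Both arms overlapped, and the log2 fold change was 0.67 ± 0.28. Cxcl9, another CXCR3 ligand, had -0.04 ± 0.43, and 0.65 without the 2 libraries. Of 11 cytotoxic effectors, the death ligand Tnfsf10 was higher at an unadjusted p below 0.05 (0.60 ± 0.22), with 0.61 ± 0.33 in the arm without and 0.60 ± 0.32 in the arm with antiPD1. Of 14 checkpoint genes 0 were, and Cd274, which encodes the PD-1 ligand PD-L1, had -0.07 ± 0.29 (0.39 without the 2 libraries).

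The 5 leukocyte markers summed to 593 to 675 CPM in untreated, 401 to 731 in IFNa, 729 to 1751 in antiPD1 and 843 to 905 in combination libraries, with 0 of 5 at an unadjusted p below 0.05 and a median log2 fold change of -0.13. T cell markers (18 genes) had a median of -0.16 and macrophage and monocyte markers (19 genes) of 0.03, each with 0 at an unadjusted p below 0.05. Without the 2 libraries these medians were 0.45, 0.41 and 0.53. With the leukocyte marker level of each library as a covariate, 56 of 103 interferon-list genes were higher at an unadjusted p below 0.05 (3.37% of all genes in that fit), and their median was 0.34. Neutrophil markers had 11 of 11 values above 0 with a median of 0.51 (0.20 without IFNa replicate 1 and 0.42 without both libraries). Of the 11, 2 were higher at an unadjusted p below 0.05 (18.2%, against 1.82% of all tested genes). They were the gelatinase Mmp9 (1.02 ± 0.31) and the resistin-like Retnlg (0.99 ± 0.38). Mmp9 was at 5.61, 3.93 and 10.2 CPM in untreated, 6.13, 17.0 and 15.2 in IFNa, 23.3, 13.0 and 13.6 in antiPD1 and 23.1, 48.6 and 33.9 in combination libraries, and both arms overlapped.

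**Figure D2:**
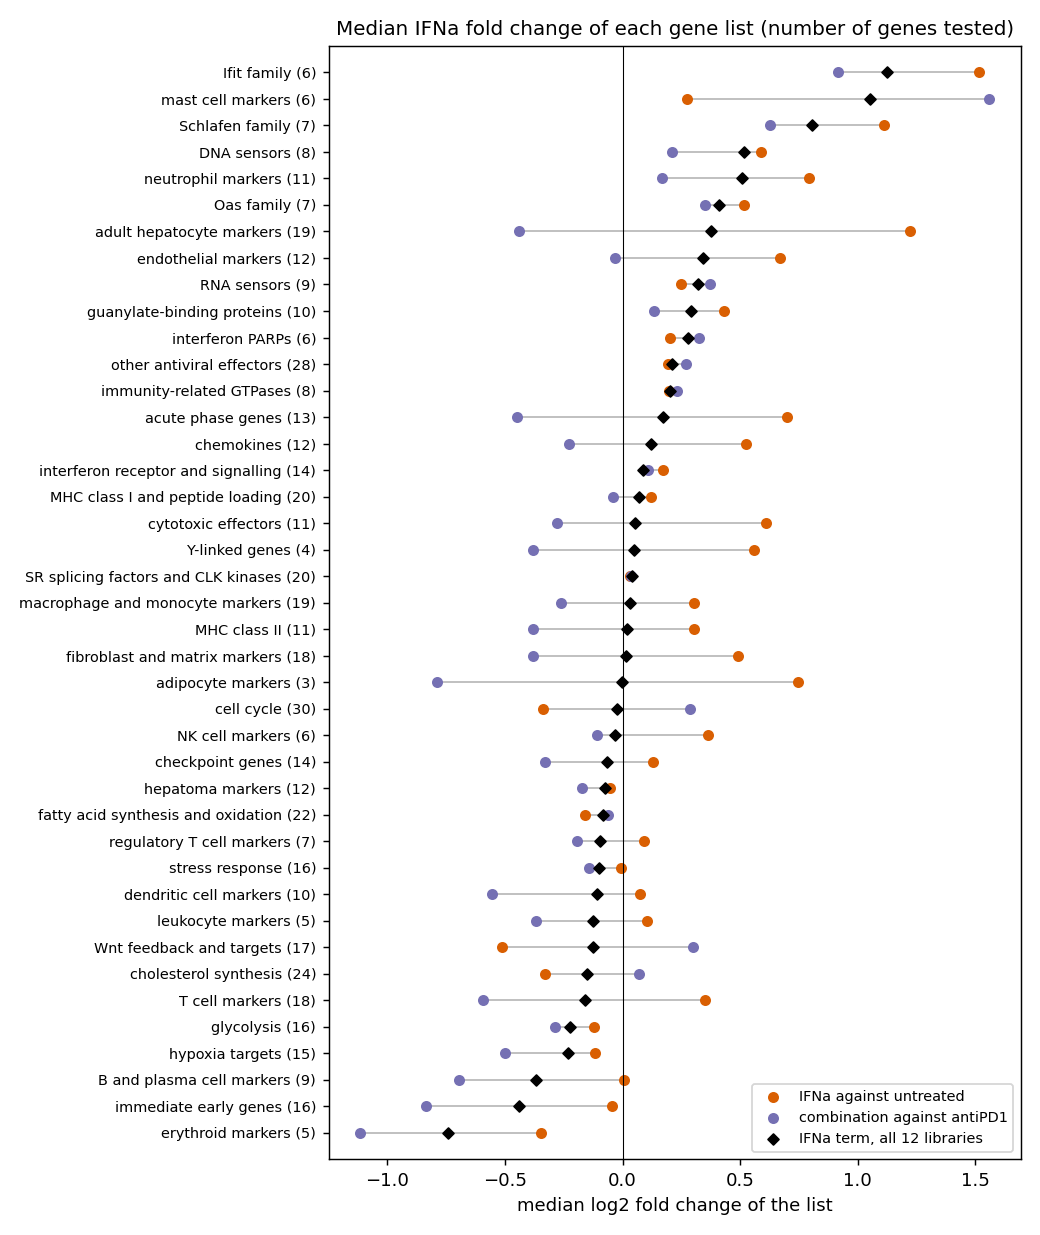
Median log2 fold change of 41 gene lists (number of genes tested in brackets) for the IFNa term (black diamonds), for IFNa against untreated (orange) and for combination against antiPD1 (violet); the acinar list is left out because its arms lie at -5.24 and 5.84. Ifit genes lie highest, and most cell type lists have arms on either side of 0.

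Genes of glucose use and of the response to low oxygen had values below 0 for the IFNa term in 30 of 31 cases. For that term, 0 of them passed an adjusted p of 0.05. The choice of these lists was also made with earlier results of these data known, so their shares are descriptions. All 15 hypoxia targets tested had values below 0, with a median of -0.23, and 4 were lower at an unadjusted p below 0.05 (26.7%, against 2.31% of all tested genes). Of 16 glycolysis genes, 15 were below 0 (50.9% of all tested genes were) and 9 were lower at that threshold (56.2%). The joint median was -0.12 without and -0.38 with antiPD1. Untreated replicate 3 was below every IFNa library in the summed level of the glycolysis genes (9328 against 10114 to 10762 CPM) and of the hypoxia targets (2814 against 2848 to 3141 CPM). Without single libraries the joint count of 13 of 31 moved to between 8 (without combination replicate 1) and 22 (without untreated replicate 3). Of all genes, 1.87% and 3.93% were lower at that threshold in those 2 fits. The count was 13 without IFNa replicate 1 and antiPD1 replicate 3, where 5.90% of all genes were lower, against 2.31% with all libraries. On the deposited FPKM the joint count was 7 (0.884% of all genes were lower at that threshold).

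Slc2a1, the glucose transporter GLUT1, was at 501, 477 and 303 CPM in untreated, 422, 326 and 332 in IFNa, 376, 370 and 380 in antiPD1 and 204, 206 and 250 in combination libraries. IFNa and untreated libraries overlapped, while each combination library was below every antiPD1 library. In the arm with antiPD1, 14.2% of all tested genes were apart in either direction. The log2 fold change was -0.51 ± 0.14, with -0.25 ± 0.18 in the arm without and -0.77 ± 0.18 in the arm with antiPD1. The angiogenic factor Vegfa was at 725, 504 and 540 CPM in untreated, 513, 511 and 544 in IFNa, 591, 684 and 579 in antiPD1 and 359, 347 and 433 in combination libraries. Its log2 fold change was -0.44 ± 0.12, of which the arms gave -0.17 ± 0.14 and -0.70 ± 0.14. The combination libraries were again apart from antiPD1, and the IFNa libraries were not apart from untreated. Ndrg1, a stress-induced differentiation gene, had -0.61 ± 0.18, the mitophagy receptor Bnip3 -0.50 ± 0.17, the growth inhibitor Ddit4 -0.69 ± 0.25 and the glycolytic isomerase Gpi1 -0.36 ± 0.11. The difference between the arms did not pass for these genes in edgeR's interaction test (adjusted p = 0.798 for Slc2a1, Vegfa and Ndrg1). In the arm with antiPD1, DESeq2 called Slc2a1 (-0.78, adjusted p = 0.029), Vegfa (-0.71, adjusted p = 0.0074) and Ndrg1 (-0.95, adjusted p = 0.022). It did not call Bnip3, Ddit4 or Gpi1 there. The genes named here were not among the DESeq2 calls of the arm without antiPD1 or of the interaction.

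Immediate early genes, switched on within minutes by growth factors or stress, had a median of -0.44 over 16 genes, with -0.05 in the arm without and -0.84 in the arm with antiPD1. At an unadjusted p below 0.05, 4 were lower (25.0%, against 2.31% of all tested genes): Egr1, the mRNA-destabilizing Zfp36, the MAP kinase phosphatase Dusp1 and Ier3. Egr1 was at 270, 75.3 and 295 CPM in untreated, 165, 73.7 and 70.2 in IFNa, 131, 82.8 and 116 in antiPD1 and 65.7, 51.7 and 50.2 in combination libraries. Combination libraries were wholly below antiPD1, but untreated replicate 2 lay among the IFNa libraries. In the arm with antiPD1, 14.2% of all tested genes were apart in either direction. The log2 fold change was -1.01 ± 0.32. Zfp36 had -1.08 ± 0.36, Dusp1 -0.82 ± 0.29 and Ier3 -0.75 ± 0.30. The median was -0.20 without antiPD1 replicate 3 and -0.71 without IFNa replicate 1, which moved the count to 3 and 8. Of all genes, 2.63% and 4.05% were lower at that threshold in those fits.

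**Figure D3:**
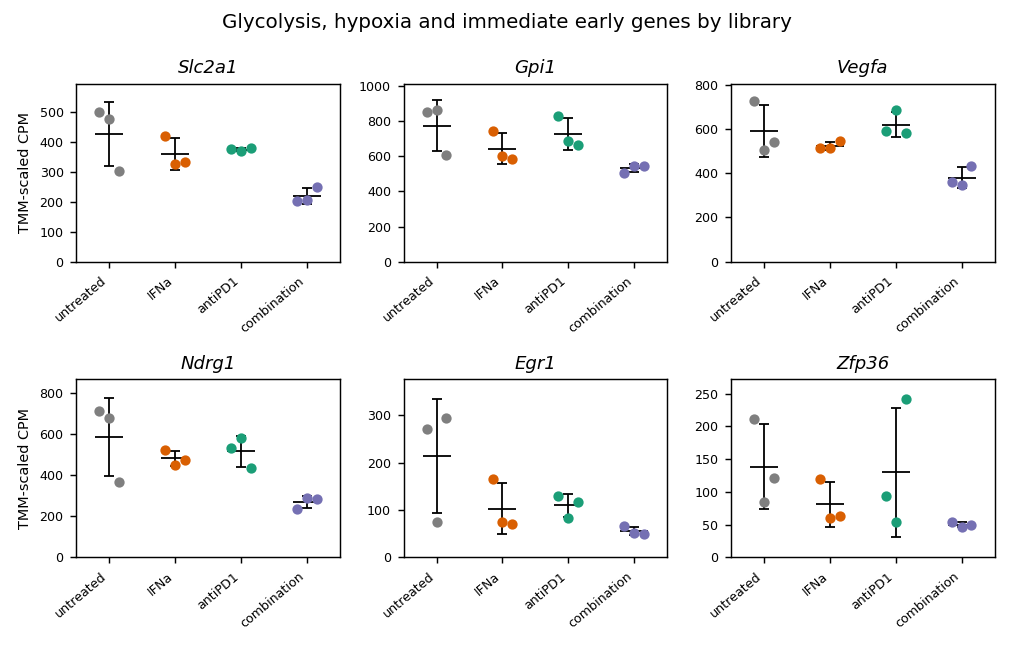
TMM-scaled CPM (linear axes from 0) of 6 genes of glucose use, the hypoxia response and the immediate early response in each library by group, with the mean and SD of 3 in black. Combination libraries lie lowest, and untreated libraries spread most in Slc2a1, Ndrg1 and Egr1.

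Outside these lists, the naming rule gave Sap25, a subunit of the SIN3 corepressor complex, as the remaining gene among the 5 smallest p-values of the genes that were higher and apart in both arms. It was at 3.37, 3.15 and 3.73 CPM in untreated, 4.89, 5.58 and 6.13 in IFNa, 6.20, 5.99 and 6.65 in antiPD1 and 7.89, 8.11 and 8.38 in combination libraries, a log2 fold change of 0.53 ± 0.12. Its libraries did not overlap in either arm. Of the 29 genes that were lower and apart in both arms, the rule named 5 by smallest p. Map2k6, a kinase that activates p38, was at 72.7, 74.0 and 54.0 CPM in untreated, 45.4, 51.6 and 51.5 in IFNa, 38.97, 54.9 and 42.1 in antiPD1 and 34.1, 34.0 and 32.6 in combination libraries, and had -0.43 ± 0.10. Pgap1, a lipid-anchor remodelling enzyme, had -0.41 ± 0.10. The zinc finger gene Zfp341 had -0.52 ± 0.14, the translation factor Eif2a -0.19 ± 0.05 and the exchange factor Plekhg5 -0.33 ± 0.09. Rsrp1, an arginine- and serine-rich protein gene, had 0.57 ± 0.15 with 65.1 to 107 CPM in IFNa against 43.0 to 48.1 in untreated libraries, and overlap in the other arm. Among 20 genes of splicing factors and their kinases, 2 were higher at an unadjusted p below 0.05 (10%, against 1.82% of all tested genes). They were Rsrp1 and Luc7l3 (0.36 ± 0.16).

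The additive term averages over both arms of the design. Of 14389 genes, 6311 had the same sign in both (43.9%), and the Pearson correlation across genes was -0.34 (Spearman -0.18), given as a description because genes are not independent replicates. Without IFNa replicate 1 and antiPD1 replicate 3 the share was 57.2% and the correlations were -0.028 and 0.23. In edgeR's interaction test, 0 genes passed (0%, smallest adjusted p 0.157), with 868 at an unadjusted p below 0.05 (6.03%), and DESeq2 called 61. Pancreatic acinar enzymes were among the 61, such as Pnlip (14.9) and Cpa1 (11.5), as was Cyp2c69 (-19.7). In the arm without antiPD1 alone, 0 passed with 803 at an unadjusted p below 0.05 (5.58%, DESeq2 28). In the arm with antiPD1, 0 passed with 683 (4.75%, DESeq2 22). Acinar enzymes were among the DESeq2 calls of each arm too, such as Pnlip (-7.26 without and 7.61 with antiPD1). Members of the acinar list were at or near 0 counts in some groups, so these values give no size.

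**Figure D4:**
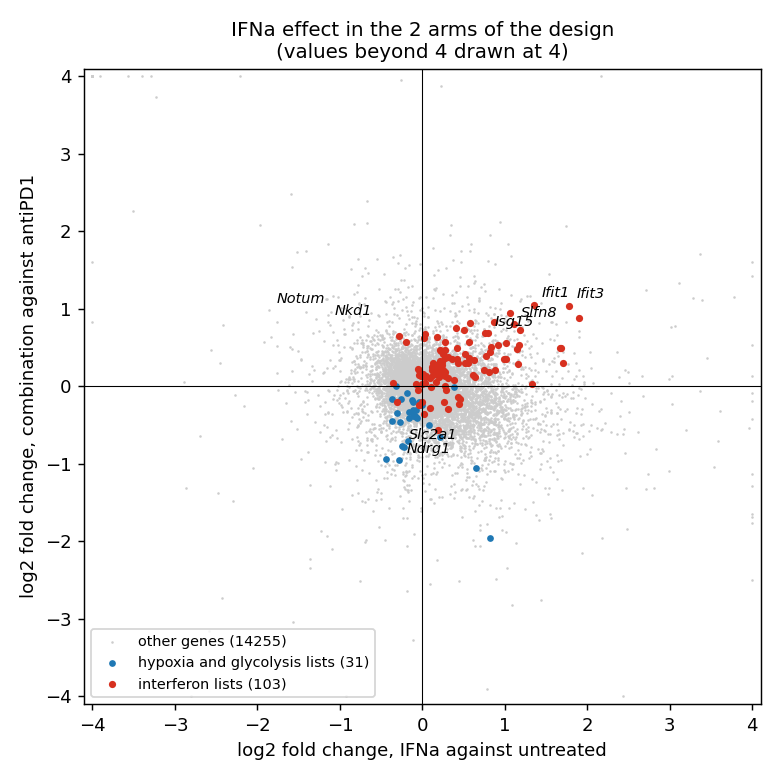
Log2 fold change of IFNa against untreated (horizontal) and of combination against antiPD1 (vertical) for each tested gene, with the interferon lists in red and the hypoxia and glycolysis lists in blue. Of 103 interferon genes 79 lie above 0 on both axes, whereas Notum and Nkd1 lie to the upper left.

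For some genes the IFNa term averaged opposite values of the arms. Notum, a secreted enzyme that inactivates Wnt ligands, was at 210, 209 and 84.5 CPM in untreated, 30.2, 52.5 and 56.7 in IFNa, 76.8, 60.2 and 52.1 in antiPD1 and 132, 145 and 98.2 in combination libraries. IFNa libraries were wholly below untreated, and combination libraries wholly above antiPD1. The arms gave -1.85 ± 0.35 and 0.99 ± 0.34, the IFNa term -0.43 ± 0.53. Nkd1, an intracellular Wnt antagonist, gave -1.15 ± 0.24 and 0.83 ± 0.24, and the membrane protein gene Pllp -0.66 ± 0.13 and 0.78 ± 0.13, both without overlap in either arm. Arg2, the mitochondrial arginase, gave 0.16 ± 0.11 and -0.72 ± 0.11. Such opposite separation, lower and then higher, held for 107 genes (0.744%), and higher and then lower for 29 (0.202%). Over 17 Wnt feedback and target genes the median was -0.51 without and 0.30 with antiPD1, over 30 cell cycle genes -0.34 and 0.29. For 30 of 30 cell cycle genes the arms had opposite signs, and the median IFNa term was -0.02 (0.15 without IFNa replicate 1). Summed over the cell cycle genes, IFNa replicate 1 was at 1576 CPM, while the other IFNa libraries (3452 and 3328 CPM) lay within the untreated range of 3293 to 3979 CPM.

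**Figure D5:**
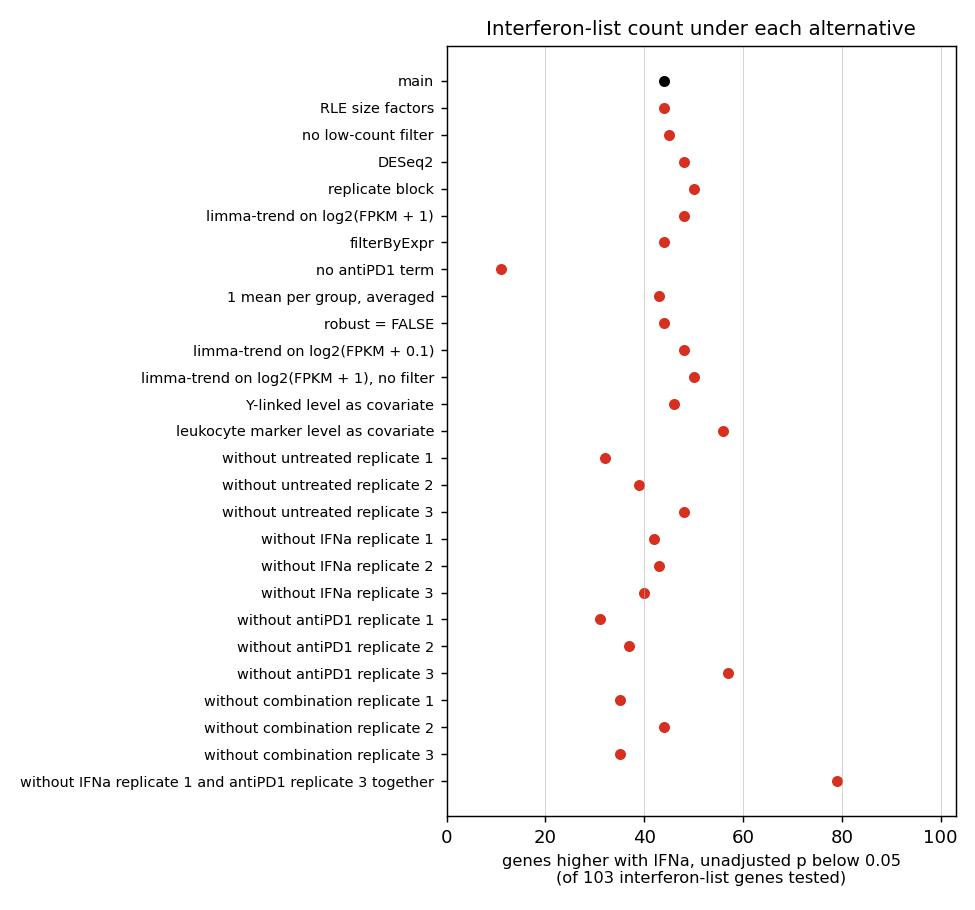
Number of the 103 interferon-list genes that were higher with IFNa at an unadjusted p below 0.05 (horizontal axis) under the fit described (black) and each alternative (red). The count runs from 11 without an antiPD1 term to 79 without IFNa replicate 1 and antiPD1 replicate 3, and single left-out libraries give 31 to 57.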

How the data were processed

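The authors' deposited table of raw counts per gene and their deposited FPKM table cover the same 12 libraries. The tools named, per the submitters' processing notes, are HTSeq, Cufflinks and HISAT2 2.1.0, with the mm10 build; no annotation or strand setting is given there. Columns were matched to samples by name, and 94.5% of symbols matched GENCODE M21. With R 4.3.3, counts were TMM-scaled and tested with edgeR 4.0.16 (robust quasi-likelihood F test, model IFNa plus antiPD1, all 12 libraries, Benjamini-Hochberg at 0.05). Values within each arm were contrasts of group means, and a model with the product of both treatments gave the interaction. A count of 3 equals 0.0786 to 0.102 CPM, which covers counting error only. DESeq2 1.42.0 and limma 3.58.1 (log2 of FPKM plus 1 or 0.1, at least 1 FPKM in 3 libraries) were alternatives, with other scalings, filters, models, covariates and each library left out. Named genes are the 5 smallest p-values in each direction with at least 5 CPM and no overlap in either arm, the 4 smallest interaction p-values and a fixed set, from which examples are given. The 42 gene lists (555 genes) were written from general knowledge, and members and lists were chosen with earlier results of these data known. In simulated data the test called 74 of 99 genes changed 2-fold and 88 of 100 changed 4-fold in the IFNa term over 14389 genes, with 8 false calls. The simulated libraries had no antiPD1 effect, no genes with opposite arms and no library standing apart. These rates therefore do not carry over to the real libraries. Library pairs differed by more than sampling noise and were all kept. Promoter windows are from RefSeq.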

Additional observations from a re-analysis of the deposited data

Results flagged for a closer look

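In 134 sets of 6 libraries (67 genes, libraries given or not given IFNa), 7 held 1 library far from the nearest other on the log2 scale, where chance gives about 1 in 20. The 7 flags are near that rate. It does not strictly apply, because each set joined 2 treatment groups. IFNa replicate 1 was such a library in 4: it was low in Bst2 (54.9 CPM) and high in Egr1 (165 CPM), Zfp36 (120 CPM) and Dusp1 (268 CPM). Among libraries not given IFNa, untreated replicate 1 was low in Rtp4 (5.25 CPM), untreated replicate 2 was low in Ddit4 (114 CPM) and antiPD1 replicate 1 was low in Arg2 (32.5 CPM).

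The IFNa effect went opposite ways in the arms, with every library apart, for Notum (difference 2.84 on the log2 scale), Nkd1 (1.98) and Pllp (1.44). In edgeR's interaction test these differences had adjusted p-values of 0.370, 0.370 and 0.157, and DESeq2 called each of them.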

How the results depend on the processing

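The IFNa term had 0 genes at an adjusted p below 0.05 under every edgeR and limma alternative and without each library, and 6 with DESeq2 (Ifit1, Ifit2, Ifit3 and Isg15 among them, 1.21, 1.01, 1.41 and 0.75, with Sap25 at 0.53). The replicate block gave 0 calls for the term, the interaction and both arms, with 610 genes at an unadjusted p below 0.05 for the term. Correlations of same-numbered libraries, with group means taken out, ranged from -0.30 to 0.50, with 8 of 18 over 0.1. Differently numbered libraries were not compared, so whether replicate numbers pair the libraries was not tested. The interaction had 61 calls with DESeq2 (52 higher, acinar enzymes among them), 0 to 1 without single libraries and 2 without IFNa replicate 1 and antiPD1 replicate 3 together. The arm without antiPD1 had 28 with DESeq2, 0 to 3 without single libraries (3 without IFNa replicate 1) and 5 without both. Those 5 genes (C3, Crb3, Gpr108, Nudt12 and Trip10) lie within 1.95 Mb on chromosome 17. The arm with antiPD1 had 22 with DESeq2, acinar enzymes among them. The number of genes at an unadjusted p below 0.05 for the term was 391 to 1090 without single libraries (1020 without antiPD1 replicate 3, 1090 without IFNa replicate 1), 2016 without both and 307 without the antiPD1 term. Genes near 0 changed sign. Cxcl9 was 0.064 with the replicate block, 0.076, 0.082 and 0.076 in the 3 FPKM fits, 0.053 with the Y-linked covariate, 0.16 with the leukocyte covariate, 0.65 without both libraries and -0.19 to 0.47 without single ones. Cd274 was 0.037 with the block, 0.090, 0.11 and 0.090 on FPKM, 0.11 with the leukocyte covariate, 0.39 without both and -0.18 to 0.32 without single libraries. Ifnar1 was 0.032, 0.035 and 0.032 on FPKM. Without the antiPD1 term Gbp2 was -0.056, H2-K1 -0.27 and Pllp -0.015. Without single libraries, Ifnar1 ranged from -0.047 to 0.013, Ifnar2 from -0.016 to 0.20, Gbp2 from -0.023 to 0.43, H2-K1 from -0.048 to 0.67, Nkd1 from -0.37 to 0.025, Pllp from -0.057 to 0.19, Tap1 from -0.0037 to 0.27 and Usp18 from -0.0062 to 0.11. The causes were not tested. The other single-gene values, 1692 in all, kept direction and side of the threshold. Genes under about 1 CPM rest on few counts.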

Other observations

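Mast cell markers had a median IFNa term of 1.05 over 6 genes tested (0.28 without and 1.56 with antiPD1). Summed over the 7 listed genes, they were at 2.59 to 6.87 CPM in untreated and 5.40 to 12.1 in IFNa libraries. With antiPD1 the sums were 9.75 to 28.04 CPM, and with the combination 16.5 to 25.2. The tryptase Tpsb2 was the member at an unadjusted p below 0.05 (1.47 ± 0.55), with 0 to 0.102 CPM in untreated, 0.0262 to 0.120 in IFNa, 0.425 to 1.79 in antiPD1 and 2.37 to 4.86 in combination libraries. Its untreated and IFNa levels were near the floor of 3 counts, and its lowest value over the alternatives was 0.52, on log2 of the deposited FPKM plus 1. Adult hepatocyte markers had 1.22 without and -0.44 with antiPD1 (median 0.38, 0 of 19 at an unadjusted p below 0.05). The median was -0.19 without IFNa replicate 1 (2443 CPM summed, the other IFNa libraries 667 and 713) and 1.09 without antiPD1 replicate 3 (6024 CPM, the other antiPD1 libraries 773 and 1247). Pancreatic acinar enzymes, which neither hepatoma nor immune cells make in quantity, had fitted medians of -5.24 and 5.84 in the arms over 10 genes, which give no size because members were at or near 0 counts in some groups. Summed over the 12 listed genes, they were at 34.9 to 75.1 CPM in untreated and 24.5 to 34.3 in IFNa libraries. With antiPD1 the sums were 15.5 to 19.5 CPM, and with the combination 18.7 to 96.9. Separately, hemoglobin and other erythroid genes were below 0 in both arms for 5 of 5 genes (median -0.74), with 0 of 5 at an unadjusted p below 0.05. Levels summed over the 6 listed erythroid genes overlapped, at 102 to 229 CPM in untreated and 29.6 to 219 in IFNa libraries. They were at 59.0 to 505 CPM in antiPD1 and 55.0 to 334 in combination libraries.

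Klrb1a, a natural killer cell receptor gene, had the second smallest p of the IFNa term (unadjusted p = 0.000503) and a log2 fold change of -2.50 ± 0.54. It was at 1.95, 1.63 and 0.428 CPM in untreated and 0.300, 0.200 and 0.236 in IFNa libraries, and at or below 0.170 CPM in every library given antiPD1, near the floor of 3 counts. The naming rule leaves it out for its low level, and it was chosen here after its values were seen.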
